A study of Mus musculus with 23 samples.

Results

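The 47 genes described here encode the machinery that copies chromosomal DNA and the enzymes that supply it with nucleotides. They were taken as a given list of gene symbols and cover origin recognition (3 genes), licensing (3), the MCM helicase (6), helicase activation (7), polymerase alpha and primase (4), polymerases delta and epsilon (5), the sliding clamp and its loader (6), single-strand binding (2), flap removal and ligation (2), nucleotide supply (5) and the copying of chromatin behind the fork (4). All 47 symbols were found among the 24454 genes of the deposited count table. No gene of the list had a count of 0 in any library, and all 47 passed the filter on low counts in both sets of libraries.

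The study profiled RNA of stem and progenitor cells sorted from mouse bone marrow, and asked how the JAK2-V617F mutation, the activating kinase change of human myeloproliferative neoplasms, alters them. The V617F groups came from C57BL/6 mice carrying SclCre;V617F, in which a Cre recombinase driven by regulatory sequence of Scl (Tal1) switches the mutant allele on after tamoxifen. The other animals were wild-type (WT) C57BL/6 mice. Both genotypes received tamoxifen on 5 days in a row and were killed 12 weeks later; their ages are not given. Long-term hematopoietic stem cells (LT-HSC) were sorted as lineage-negative, cKit+, Sca-1+, CD48-, CD150+ cells, and the same gate was divided into CD41-positive and CD41-negative HSC in other samples. Megakaryocyte progenitors (MkP) were lineage-negative, cKit+, Sca-1-, CD150+ and CD41+. There were 3 V617F and 2 WT libraries of CD41-positive HSC, and 3 of each genotype for CD41-negative HSC, MkP and LT-HSC. All V617F LT-HSC libraries came from males and all WT LT-HSC libraries from females, and replicate 2 of both V617F CD41 fractions came from a male. The other libraries came from females. The labels do not say whether a library holds 1 mouse or a pool, so p-values measure the spread between these libraries.

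DNA replication starts when the origin recognition complex, with Cdc6 and Cdt1, loads the ring-shaped MCM helicase onto origins in G1 phase. At the start of S phase the kinase Cdc7 and the proteins Cdc45, Mcm10 and the GINS complex turn the loaded ring into a moving helicase, and polymerases alpha, delta and epsilon copy the strands. Most of these genes are transcribed when cells pass from G1 into S phase, under E2F factors, so that their RNA is high in dividing populations and low in quiescent ones. Adult LT-HSC are for the most part quiescent, and CD41 (encoded by Itga2b) marks HSC that lean towards the platelet lineage. In bulk RNA, fewer cells in S phase and less of each RNA per cell cannot be told apart.

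Libraries of the CD41 fractions were made with SMART-Seq v4 and those of LT-HSC and MkP with SMART-Seq v2, so levels are compared within each of these sets. Total counts, in M, ran from 17.6 to 49.2 a library, with a median of 22.2. Pf4, a platelet chemokine that was not sorted on, was higher in the populations sorted as CD41+. It had 187 to 641 counts-per-million units (CPM) in CD41-positive HSC and 1334 to 2685 CPM in MkP. In CD41-negative HSC Pf4 had 7.73 to 29.6 CPM and in LT-HSC 25.8 to 60.5 CPM. Granulocyte markers averaged a sum of 10700 CPM in WT MkP, beside 4318 CPM for megakaryocyte markers. Their sum was 1712 CPM in V617F MkP, beside 5040 CPM. In WT LT-HSC the granulocyte sum was 5074 CPM, beside 3373 CPM for stem cell markers. In V617F LT-HSC it was 718 CPM, beside 2277 CPM. The T cell gene Cd3e was at 0 in every library. Jak2 RNA does not check the mutant allele, because the labels do not say whether transcripts of that allele are counted at mouse Jak2. WT CD41-negative replicates 1 and 3 stood apart: 1 gene, Lars2, took 1.38% and 1.68% of their counts, against 0.101% to 0.150% in the other CD41-fraction libraries. WT LT-HSC replicate 30 also stood apart from replicates 31 and 32: its stem cell marker sum was 1666 CPM, against 4476 and 3976 CPM, its erythroid sum 500.1 CPM, against 153 and 143 CPM, and its B and T cell sum 385 CPM, against 72.9 and 109 CPM. WT MkP and WT LT-HSC libraries detected 11483 to 13805 genes, against 14634 to 15697 genes in V617F MkP and V617F LT-HSC libraries.

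Promoter sequence from RefSeq (build GRCm38.p6, the mm10 assembly), from 250 bases before to 50 bases after a transcription start, was held for 39 of the 47 genes; none was held for Gmnn, Gins1, Gins2, Gins4, Mcm4, Pole, Prim2 and Rfc2. An E2F-type motif, TTTNNCGC on either strand, occurred in the windows of 17 of these 39 genes (43.6%), against 7.21% of the genes of the count table with a window. Counted by window, 18 of 49 held it (36.7%), against 6.32% of windows of genes in the table. A match of letters is a description and not a site of binding. The 5 members below are shown because a motif lies within 120 bases before the start in each; every sequence is those 120 bases, 5′ to 3′ on the gene's strand, with the motif in capitals.
Orc1, chr4:108579334-108579453, plus strand: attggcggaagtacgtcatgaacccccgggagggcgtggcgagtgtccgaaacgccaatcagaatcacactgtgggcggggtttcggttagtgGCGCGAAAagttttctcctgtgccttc
Mcm6, chr1:128359706-128359825, minus strand: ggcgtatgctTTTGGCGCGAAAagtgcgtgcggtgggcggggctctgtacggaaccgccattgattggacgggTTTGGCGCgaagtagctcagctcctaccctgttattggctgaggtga
Gins3, chr8:95633439-95633558, plus strand: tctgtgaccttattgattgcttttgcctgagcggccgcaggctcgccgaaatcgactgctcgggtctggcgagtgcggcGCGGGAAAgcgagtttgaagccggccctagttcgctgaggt
Rfc3, chr5:151651209-151651328, minus strand: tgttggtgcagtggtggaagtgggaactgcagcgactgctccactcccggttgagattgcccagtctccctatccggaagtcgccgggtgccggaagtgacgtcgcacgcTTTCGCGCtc
Uhrf1, chr17:56303217-56303336, plus strand: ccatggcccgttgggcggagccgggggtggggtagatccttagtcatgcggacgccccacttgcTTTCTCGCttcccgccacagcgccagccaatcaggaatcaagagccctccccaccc
In Mcm6, the first capital run holds 2 overlapping matches, TTTGGCGC on the gene's strand and GCGCGAAA, its reverse form, and the second run holds another TTTGGCGC. Orc1 has the reverse form GCGCGAAA and Gins3 has GCGGGAAA, while Rfc3 has TTTCGCGC and Uhrf1 has TTTCTCGC. Members with and without the motif both changed: 16 of the 17 with it and 21 of the 22 without it were called higher in CD41-positive than in CD41-negative HSC of V617F mice. Of all genes 16.4% were called higher there. The median log2 differences in that comparison were 0.92 with the motif and 1.15 without it. Between MkP and LT-HSC of WT mice the medians ran the other way, 1.11 with the motif and 0.70 without it. There 5 of the 17 and 2 of the 22 were called higher, where 2.32% of all genes were.

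Summed over the 47 genes, replication RNA was highest in the CD41-positive fraction of the HSC gate and in MkP. The sum was 11554 to 12223 CPM in V617F CD41-positive HSC and 9042 to 10216 CPM in WT CD41-positive HSC, against 5953 to 6691 CPM in V617F CD41-negative HSC and 5236 to 7253 CPM in WT CD41-negative HSC. Among the SMART-Seq v2 libraries it was 11191 to 11343 CPM in V617F MkP and 14379 to 16283 CPM in WT MkP, against 6168 to 7940.2 CPM in V617F LT-HSC and 7579 to 10709.9 CPM in WT LT-HSC. The ranges of the CD41 fractions did not overlap, nor did those of MkP and LT-HSC. Group means ran in the order V617F CD41-positive, WT CD41-positive, then both CD41-negative groups for 45 of the 47 genes. The exceptions were Pold1 and Pold2, subunits of polymerase delta, which had their highest mean in WT CD41-negative HSC. The share of all genes with this order of group means was not counted.

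Per base of transcript, the list spanned a wide range of levels, with much the same genes at its ends in each group. Rfc2, a clamp loader subunit, was highest in V617F CD41-positive HSC at 281 ± 16.9 RPKM (reads per kilobase per-million; SD, n = 3), followed by Mcm6 at 269 ± 9.22 RPKM and Mcm3 at 227 ± 3.99 RPKM. The first 2 of these differed by less than the SD of Rfc2, and Mcm3 lay below both. Orc1 was lowest there at 11.1 ± 0.830 RPKM, below Mcm10 at 21.4 ± 0.696 RPKM and Pole at 23.2 ± 0.436 RPKM. Rfc2 had the highest RPKM and Orc1 the lowest in all 8 groups.

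**Figure D1:**
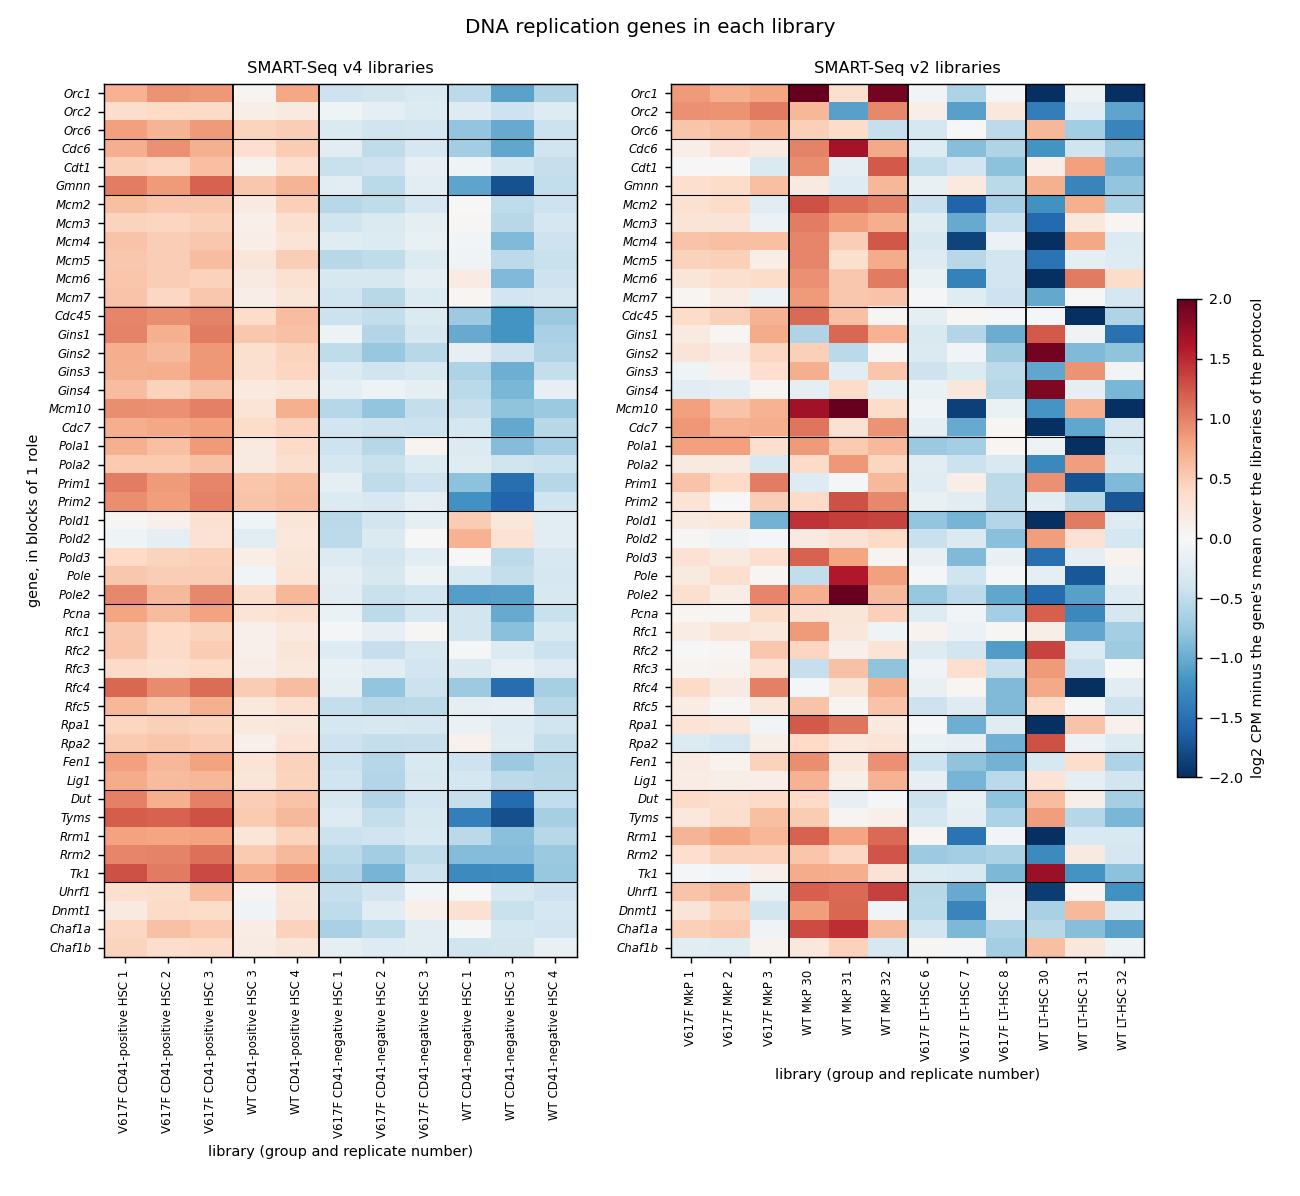
Level of each of the 47 genes in each library, as log2 CPM minus the gene's mean over the libraries of that protocol (colour scale from -2 to 2); columns are libraries, lines separate groups and roles. The V617F and WT CD41-positive columns are red for nearly all genes and the CD41-negative columns blue, while columns of WT LT-HSC differ from each other.

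The comparison of CD41-positive with CD41-negative HSC within each genotype asks how the platelet-leaning fraction of the stem cell gate differs from the rest. Replication genes rose as a group in the CD41-positive fraction. In V617F mice 45 of 47 genes were called higher and 0 lower by edgeR's quasi-likelihood test (Benjamini-Hochberg adjusted p under 0.05 over 14467 genes), where 16.4% of all genes were called higher and 17.9% lower. In WT mice 40 of 47 were called higher and 0 lower, where 15.7% of all genes were called higher and 18.2% lower. The median log2 difference was 1.02 in V617F (range 0.28 to 1.85) and 0.73 in WT (range -0.30 to 1.87), against -0.02 in V617F and -0.04 in WT over all genes. Libraries of the fractions did not overlap, with CD41-positive above, for 46 genes in V617F, where 28.4% of all genes did so, and for 44 in WT, where 27.4% did so. The 40 genes called in WT were all called in V617F. Pold2 and the maintenance DNA methyltransferase Dnmt1 passed in neither genotype, and Mcm6, Mcm7, Pold1, Rpa2 and Uhrf1 passed in V617F but not in WT, which is no test of a difference between genotypes. Leaving out WT CD41-positive replicate 4, which leaves 1 such library, lowered the WT count to 22 genes.

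Markers of other cell types moved with the fractions. Of 8 megakaryocyte markers, 7 were called higher in CD41-positive HSC in both genotypes; Itga2b, which the gate selects on, is one of them. Their summed level was 1554 to 2420 CPM in V617F and 2399 to 2559 CPM in WT CD41-positive HSC, against 329 to 401 CPM in V617F and 450.5 to 644 CPM in WT CD41-negative HSC. Of 8 stem cell markers, 5 were called lower in V617F and 6 in WT, and 1 was called higher in each. The granulocyte sum was 51.8 to 133 CPM in V617F and 82.3 to 91.0 CPM in WT CD41-positive HSC, against 163 to 199 CPM in V617F and 114 to 569 CPM in WT CD41-negative HSC. The part of these markers in the rise of replication genes was not tested.

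**Figure D2:**
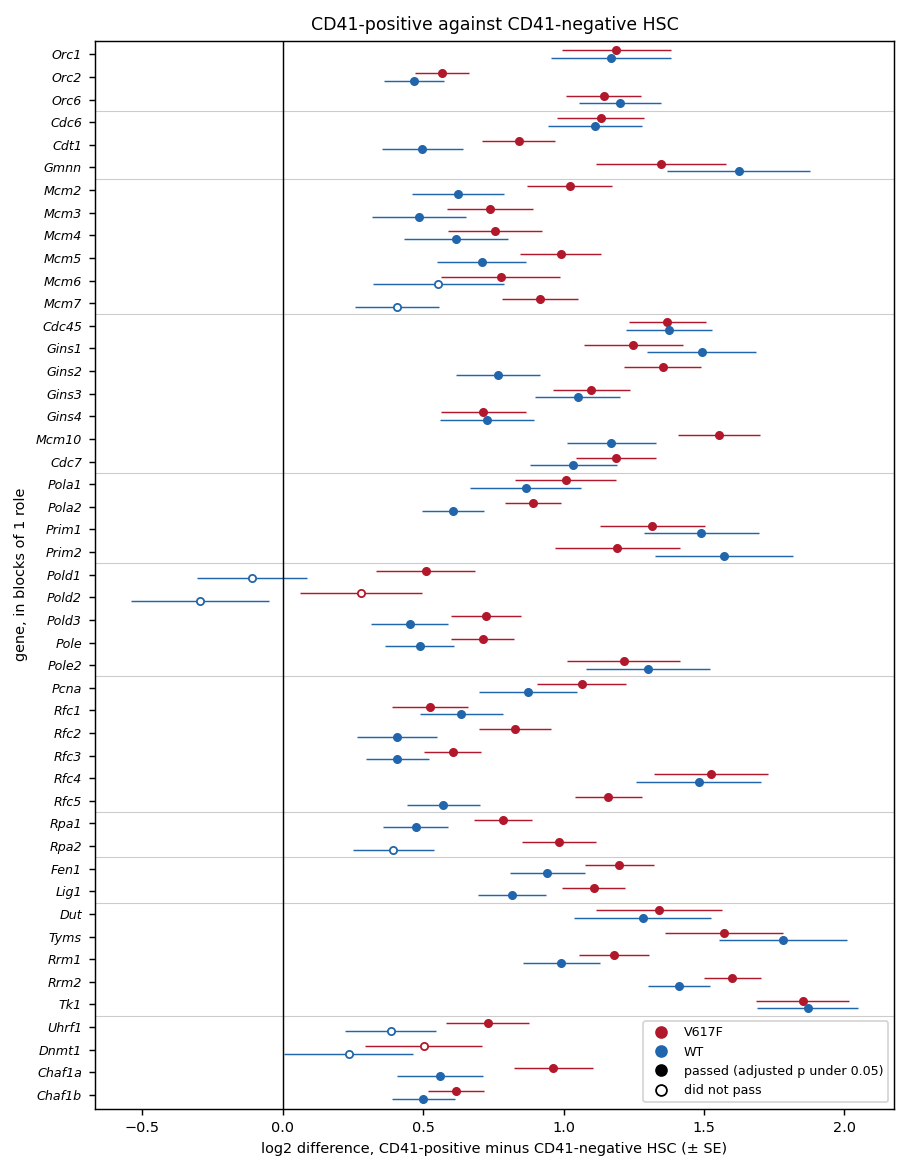
Log2 difference of each gene, CD41-positive minus CD41-negative HSC, with its standard error, in V617F mice (red, upper point of each pair) and WT mice (blue, lower point); filled points passed the test. In V617F 45 points are filled and in WT 40, and the points of Pold1 and Pold2 in WT lie left of 0.

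Nucleotide supply had the highest median difference of the roles, 1.57 in V617F and 1.41 in WT, and all 5 genes passed in both genotypes by edgeR's quasi-likelihood test. Tk1, the S phase thymidine kinase that salvages thymidine, had 154, 131 and 159 CPM in V617F CD41-positive HSC, against 42.2, 33.5 and 47.5 CPM in V617F CD41-negative HSC. In WT mice Tk1 had 105 and 117 CPM in CD41-positive HSC, against 26.5, 26.7 and 37.8 CPM in CD41-negative HSC. Each CD41-positive library was more than 2-fold above every CD41-negative library of its genotype, and the log2 difference was 1.85 ± 0.17 (SE, adjusted p = 1.23e-05) in V617F and 1.87 ± 0.18 (SE, adjusted p = 4.11e-05) in WT. Rrm2, the small subunit of the ribonucleotide reductase that makes deoxynucleotides, had 277, 282 and 302 CPM in V617F CD41-positive HSC, against 96.98, 87.5 and 99.1 CPM in V617F CD41-negative HSC. WT libraries held 203 and 221 CPM of Rrm2 in CD41-positive HSC, against 77.4, 77.1 and 84.4 CPM in CD41-negative HSC. The fractions were far apart in both genotypes, with log2 differences of 1.60 ± 0.10 (SE, adjusted p = 4.14e-06) in V617F and 1.41 ± 0.11 (SE, adjusted p = 2.23e-05) in WT. Thymidylate synthase Tyms, the reductase's large subunit Rrm1 and the dUTP-clearing enzyme Dut differed by log2 1.57, 1.18 and 1.34 in V617F and by 1.78, 0.99 and 1.28 in WT.

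Genes of helicase activation had a median of 1.25 in V617F, the next highest there, and 1.05 in WT, and all 7 passed in both genotypes. Mcm10, which helps the loaded helicase to start unwinding, had 83.3, 82.6 and 87.7 CPM in V617F CD41-positive HSC, against 29.4, 25.4 and 31.6 CPM in V617F CD41-negative HSC. For WT mice the values were 53.04 and 71.5 CPM in CD41-positive HSC, against 31.9, 25.1 and 26.1 CPM in CD41-negative HSC. No libraries of the fractions overlapped, and the log2 difference was 1.55 ± 0.15 (SE, adjusted p = 1.59e-05) in V617F and 1.17 ± 0.16 (SE, adjusted p = 0.000348) in WT. Gins2, a subunit of the GINS complex that joins Cdc45 and MCM, had 70.4, 67.1 and 78.1 CPM in V617F CD41-positive HSC, against 30.1, 25.1 and 29.2 CPM in V617F CD41-negative HSC. In WT mice Gins2 had 53.2 and 57.99 CPM in CD41-positive HSC, against 38.1, 31.9 and 28.1 CPM in CD41-negative HSC. The fractions did not overlap, and Gins2 differed by log2 1.35 ± 0.14 (SE, adjusted p = 2.42e-05) in V617F and 0.77 ± 0.15 (SE, adjusted p = 0.00306) in WT. Cdc45, the third part of the active helicase beside MCM and GINS, had 101, 97.4 and 102 CPM in V617F CD41-positive HSC, against 37.9, 36.4 and 41.98 CPM in V617F CD41-negative HSC. WT libraries held 66.04 and 79.02 CPM of Cdc45 in CD41-positive HSC, against 30.9, 22.3 and 30.6 CPM in CD41-negative HSC. No overlap was seen for Cdc45, whose log2 difference was 1.37 ± 0.14 (SE, adjusted p = 2.46e-05) in V617F and 1.38 ± 0.15 (SE, adjusted p = 9.33e-05) in WT. Gins1, Gins3, Gins4 and the kinase gene Cdc7 differed by log2 0.71 to 1.25 in V617F and by 0.73 to 1.49 in WT.

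All 6 origin recognition and licensing genes passed in both genotypes. Orc6, the smallest subunit of the origin recognition complex, had 117, 106 and 119 CPM in V617F CD41-positive HSC, against 54.04, 49.96 and 50.8 CPM in V617F CD41-negative HSC. In WT mice Orc6 had 90.3 and 93.2 CPM in CD41-positive HSC, against 38.1, 32.9 and 48.8 CPM in CD41-negative HSC. Every CD41-positive library was above every CD41-negative one, with a log2 difference of 1.14 ± 0.13 (SE, adjusted p = 6.23e-05) in V617F and 1.201 ± 0.15 (SE, adjusted p = 0.000183) in WT. Orc1, the ATP-binding subunit whose protein is cell cycle regulated, was the lowest of the list per base of transcript and had 30.7, 35.3 and 34.7 CPM in V617F CD41-positive HSC, against 14.2, 14.6 and 15.4 CPM in V617F CD41-negative HSC. The WT values of Orc1 were 19.7 and 32.3 CPM in CD41-positive HSC, against 13.2, 9.03 and 12.4 CPM in CD41-negative HSC. The fractions did not overlap, and Orc1 differed by log2 1.19 ± 0.20 (SE, adjusted p = 0.000629) in V617F and 1.17 ± 0.22 (SE, adjusted p = 0.00227) in WT. Cdc6, an MCM loader, had 104, 119 and 104 CPM in V617F CD41-positive HSC, against 54.8, 44.4 and 50.2 CPM in V617F CD41-negative HSC. WT libraries held 79.7 and 90.2 CPM of Cdc6 in CD41-positive HSC, against 39.1, 30.7 and 48.1 CPM in CD41-negative HSC. The log2 difference of Cdc6 was 1.13 ± 0.15 (SE, adjusted p = 0.000174) in V617F and 1.11 ± 0.17 (SE, adjusted p = 0.000684) in WT, again with no overlap. Cdt1, its partner in loading, had 109, 106 and 118 CPM in V617F CD41-positive HSC, against 57.3, 58.4 and 69.9 CPM in V617F CD41-negative HSC. For WT mice the Cdt1 values were 82.5 and 98.4 CPM in CD41-positive HSC, against 73.99, 61.2 and 57.1 CPM in CD41-negative HSC. No Cdt1 libraries overlapped between fractions, and the log2 difference was 0.84 ± 0.13 (SE, adjusted p = 0.000399) in V617F and 0.50 ± 0.14 (SE, adjusted p = 0.0195) in WT. Gmnn, which encodes geminin, the inhibitor of Cdt1, differed by log2 1.35 in V617F and 1.62 in WT, and Orc2 by 0.57 in V617F and 0.47 in WT.

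The 6 MCM helicase genes, whose products form the ring that unwinds the duplex, had a lower median, 0.85 in V617F and 0.59 in WT; 6 passed in V617F and 4 in WT. Mcm2 had 627, 597 and 602 CPM in V617F CD41-positive HSC, against 281, 291 and 328 CPM in V617F CD41-negative HSC. In WT mice Mcm2 had 468 and 572 CPM in CD41-positive HSC, against 412, 291 and 309.5 CPM in CD41-negative HSC. Fractions did not overlap in either genotype, and the log2 difference was 1.02 ± 0.15 (SE, adjusted p = 0.000302) in V617F and 0.62 ± 0.16 (SE, adjusted p = 0.0135) in WT. Mcm5 had 511, 497 and 543 CPM in V617F CD41-positive HSC, against 239, 249 and 292 CPM in V617F CD41-negative HSC. WT libraries held 418 and 496 CPM of Mcm5 in CD41-positive HSC, against 334, 245 and 259.8 CPM in CD41-negative HSC. Mcm5 differed by log2 0.99 ± 0.14 (SE, adjusted p = 0.00029) in V617F and 0.71 ± 0.16 (SE, adjusted p = 0.00626) in WT, without overlap. Mcm6 and Mcm7 differed by log2 0.55 and 0.41 in WT and did not pass there, although the fractions did not overlap for any MCM gene.

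Among the polymerases, the alpha and primase genes had higher medians than the delta and epsilon genes in both genotypes. All 4 alpha and primase genes passed in both genotypes, with a median of 1.10 in V617F and 1.18 in WT. Prim1, the catalytic primase subunit that lays down RNA primers, had 187, 166 and 179.9 CPM in V617F CD41-positive HSC, against 81.03, 64.4 and 68.7 CPM in V617F CD41-negative HSC. The WT values of Prim1 were 135 and 139 CPM in CD41-positive HSC, against 52.00, 32.3 and 61.9 CPM in CD41-negative HSC. The fractions were fully apart, with log2 differences of 1.32 ± 0.19 (SE, adjusted p = 0.000236) in V617F and 1.49 ± 0.20 (SE, adjusted p = 0.000379) in WT. Pola2, the accessory subunit of polymerase alpha, had 167, 167 and 175 CPM in V617F CD41-positive HSC, against 92.5, 85.3 and 96.7 CPM in V617F CD41-negative HSC. In WT mice Pola2 had 132 and 146 CPM in CD41-positive HSC, against 98.6, 88.8 and 86.6 CPM in CD41-negative HSC. Its log2 difference was 0.89 ± 0.10 (SE, adjusted p = 4.84e-05) in V617F and 0.61 ± 0.11 (SE, adjusted p = 0.00221) in WT, with no overlap.

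Of the 5 delta and epsilon genes, 4 passed in V617F and 3 in WT, with a median of 0.71 in V617F and 0.45 in WT. Pole2, the second subunit of the leading-strand polymerase epsilon, had 57.7, 46.9 and 57.8 CPM in V617F CD41-positive HSC, against 25.5, 21.9 and 22.6 CPM in V617F CD41-negative HSC. WT libraries held 37.9 and 47.2 CPM of Pole2 in CD41-positive HSC, against 13.8, 14.01 and 23.9 CPM in CD41-negative HSC. Fractions did not overlap, and Pole2 differed by log2 1.21 ± 0.20 (SE, adjusted p = 0.000654) in V617F and 1.30 ± 0.22 (SE, adjusted p = 0.00137) in WT. Pole, the catalytic subunit, had 169, 164 and 163 CPM in V617F CD41-positive HSC, against 101, 93.3 and 109 CPM in V617F CD41-negative HSC. In WT mice Pole had 112 and 139.6 CPM in CD41-positive HSC, against 93.6, 83.1 and 92.1 CPM in CD41-negative HSC. Pole also had no overlap, and its log2 difference was 0.71 ± 0.11 (SE, adjusted p = 0.000443) in V617F and 0.49 ± 0.12 (SE, adjusted p = 0.011) in WT. Pold1, the catalytic subunit of the lagging-strand polymerase delta, shown here after its values were seen, had 211, 223 and 257 CPM in V617F CD41-positive HSC, against 143, 161 and 182 CPM in V617F CD41-negative HSC. For WT mice the Pold1 values were 197 and 247 CPM in CD41-positive HSC, against 297, 243 and 179 CPM in CD41-negative HSC. The fractions were apart in V617F and overlapped in WT, and the log2 difference was 0.51 ± 0.18 (SE, adjusted p = 0.0399) in V617F and -0.11 ± 0.20 (SE, adjusted p = 0.688) in WT. Pold2 differed by log2 0.28 in V617F and -0.30 in WT and overlapped in both genotypes.

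The clamp and clamp loader genes all passed in both genotypes, 6 of 6. Rfc4 had 138, 119.7 and 134 CPM in V617F CD41-positive HSC, against 54.1, 35.7 and 45.97 CPM in V617F CD41-negative HSC. The WT values of Rfc4 were 88.04 and 94.7 CPM in CD41-positive HSC, against 37.6, 21.5 and 39.04 CPM in CD41-negative HSC. No overlap was seen, and the log2 difference was 1.52 ± 0.20 (SE, adjusted p = 0.000155) in V617F and 1.48 ± 0.22 (SE, adjusted p = 0.000636) in WT. Rfc5 had 255, 236 and 263 CPM in V617F CD41-positive HSC, against 116, 110.2 and 111 CPM in V617F CD41-negative HSC. WT libraries held 187 and 205 CPM of Rfc5 in CD41-positive HSC, against 141, 143 and 110.1 CPM in CD41-negative HSC. Rfc5 differed by log2 1.16 ± 0.12 (SE, adjusted p = 2.58e-05) in V617F and by 0.57 ± 0.13 (SE, adjusted p = 0.00666) in WT. Pcna, the ring that holds polymerases on DNA, differed by log2 1.06 in V617F and 0.87 in WT, and the large loader subunit Rfc1 by 0.52 in V617F and 0.64 in WT.

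Rpa1 and Rpa2 encode subunits of the complex that coats single-stranded DNA. Rpa1 had 339, 349.5 and 345 CPM in V617F CD41-positive HSC, against 197, 202 and 201 CPM in V617F CD41-negative HSC. In WT mice Rpa1 had 291 and 296 CPM in CD41-positive HSC, against 231, 211 and 192 CPM in CD41-negative HSC. The log2 difference was 0.78 ± 0.10 (SE, adjusted p = 0.000146) in V617F and 0.47 ± 0.11 (SE, adjusted p = 0.00913) in WT, with no overlap. Rpa2 had 235, 239 and 232 CPM in V617F CD41-positive HSC, against 122, 117 and 119 CPM in V617F CD41-negative HSC. For WT mice the Rpa2 values were 175 and 199.6 CPM in CD41-positive HSC, against 173, 138 and 117 CPM in CD41-negative HSC. Rpa2 passed in V617F at 0.98 ± 0.13 (SE, adjusted p = 0.000154) and just missed the threshold in WT at 0.39 ± 0.14 (SE, adjusted p = 0.0516). Fen1, the nuclease that trims Okazaki fragment flaps, had 355, 320.3 and 353 CPM in V617F CD41-positive HSC, against 149, 136 and 163 CPM in V617F CD41-negative HSC. WT libraries held 242 and 278 CPM of Fen1 in CD41-positive HSC, against 150.3, 120.3 and 136 CPM in CD41-negative HSC. Its log2 difference was 1.198 ± 0.12 (SE, adjusted p = 2.58e-05) in V617F and 0.94 ± 0.13 (SE, adjusted p = 0.000453) in WT. Lig1, the ligase that seals the fragments, had 273, 253 and 260.3 CPM in V617F CD41-positive HSC, against 124, 109 and 131 CPM in V617F CD41-negative HSC. In WT mice Lig1 had 193 and 222 CPM in CD41-positive HSC, against 128, 114 and 112 CPM in CD41-negative HSC. Lig1 moved with Fen1, by 1.11 ± 0.11 (SE, adjusted p = 2.42e-05) in V617F and 0.82 ± 0.12 (SE, adjusted p = 0.000629) in WT.

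The genes that copy chromatin had a median of 0.67 in V617F, the lowest of the roles there, and 0.44 in WT; 3 of 4 passed in V617F and 2 in WT. Chaf1a, the large subunit of the CAF-1 chaperone that deposits histones at the fork, had 147, 165 and 159 CPM in V617F CD41-positive HSC, against 70.1, 77.3 and 93.8 CPM in V617F CD41-negative HSC. The WT values of Chaf1a were 122 and 151 CPM in CD41-positive HSC, against 108, 86.3 and 84.2 CPM in CD41-negative HSC. Chaf1a differed by log2 0.96 ± 0.14 (SE, adjusted p = 0.000285) in V617F and 0.56 ± 0.15 (SE, adjusted p = 0.0162) in WT. Chaf1b, its partner, had 225, 209 and 215 CPM in V617F CD41-positive HSC, against 144, 137 and 141 CPM in V617F CD41-negative HSC. WT libraries held 184 and 194 CPM of Chaf1b in CD41-positive HSC, against 125, 128 and 148 CPM in CD41-negative HSC. The fractions did not overlap, and the log2 difference of Chaf1b was 0.62 ± 0.10 (SE, adjusted p = 0.00063) in V617F and 0.50 ± 0.11 (SE, adjusted p = 0.0063) in WT. Uhrf1, which brings Dnmt1 to newly copied DNA, passed in V617F at 0.73 ± 0.15 (SE, adjusted p = 0.00241), and in WT it differed by 0.38 ± 0.16 (SE, adjusted p = 0.0853). Dnmt1 itself differed by 0.50 ± 0.21 (SE, adjusted p = 0.0785) in V617F and 0.23 ± 0.23 (SE, adjusted p = 0.449) in WT.

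Other genes of the pathway, 67 in 5 lists, were read beside the 47. In V617F 48 of 67 were called higher and 3 lower in CD41-positive HSC, and in WT 42 were called higher and 1 lower. The shares over all genes were 16.4% higher and 17.9% lower in V617F, and 15.7% higher and 18.2% lower in WT. Asf1b, a histone chaperone, averaged 182 CPM in V617F CD41-positive HSC and 46.2 CPM in V617F CD41-negative HSC, and in WT 134 CPM in CD41-positive and 41.5 CPM in CD41-negative HSC. Its log2 difference was 1.98 ± 0.12 (SE, adjusted p = 4.14e-06) in V617F and 1.69 ± 0.13 (SE, adjusted p = 2.23e-05) in WT. All 8 genes of its list, replication-coupled histone and chromatin genes, were called higher in V617F and 7 in WT. Among regulators of the step from G1 into S phase, 12 of 18 were called higher and 1 lower in V617F, and 13 higher and 0 lower in WT. The cyclin gene Ccna2 averaged 447 CPM in V617F CD41-positive HSC and 127 CPM in V617F CD41-negative HSC, and its log2 difference was 1.81 ± 0.14 (SE, adjusted p = 5.85e-06) in V617F and 1.68 ± 0.15 (SE, adjusted p = 3.5e-05) in WT. E2f8, a repressor among the E2F factors, differed by 2.11 ± 0.20 (SE, adjusted p = 1.67e-05) in V617F and 2.12 ± 0.22 (SE, adjusted p = 5.36e-05) in WT. Clspn, the fork-bound checkpoint adaptor claspin, differed by 1.64 ± 0.16 (SE, adjusted p = 2.38e-05) in V617F and 1.61 ± 0.18 (SE, adjusted p = 0.000102) in WT, and 15 of the 19 fork genes were called higher in V617F and 13 in WT. Of the other origin and helicase genes 8 of 12 were called higher in V617F and 5 in WT, with 0 lower. Nucleotide genes were mixed: 5 of 10 were called higher and 2 lower in V617F, and 4 higher and 1 lower in WT. Tk2, the mitochondrial thymidine kinase, fell to 41.0 CPM in V617F CD41-positive HSC, against 69.4 CPM in V617F CD41-negative HSC at log2 -0.76 ± 0.12 (SE, adjusted p = 0.000547).

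The comparison of V617F with WT in CD41-positive HSC asks whether the mutation alters the platelet-leaning fraction. No replication gene passed by edgeR's quasi-likelihood test, where 1.16% of all genes were called in either direction; 17 of 47 had an unadjusted p under 0.05 (10.6% of all genes), DESeq2 called 2 and limma-voom 0. The log2 difference was positive for all 47 genes, where 55% of all genes were positive, with a median of 0.34 (range 0.02 to 0.63), against 0.03 over all genes. All V617F libraries lay above both WT libraries for 41 genes, where 23.9% of all genes did so. Rrm2 had 277, 282 and 302 CPM in V617F CD41-positive HSC, against 203 and 221 CPM in WT CD41-positive HSC. The groups did not overlap, and the log2 difference was 0.44 ± 0.11 (SE, adjusted p = 0.101). Rrm1, its partner subunit, had 764, 754 and 768 CPM in V617F CD41-positive HSC, against 521 and 599 CPM in WT CD41-positive HSC. Rrm1 differed by log2 0.44 ± 0.14 (SE, adjusted p = 0.202), Pole by 0.40 ± 0.13 (SE, adjusted p = 0.202) and Cdc45 by 0.47 ± 0.15 (SE, adjusted p = 0.23), and none of these passed. The largest difference was that of Tyms, singled out after its values were seen, with 267, 260.4 and 276 CPM in V617F CD41-positive HSC, against 165 and 180.2 CPM in WT CD41-positive HSC, at log2 0.63 ± 0.23 (SE, adjusted p = 0.307). Without WT CD41-negative replicate 4, which enters only through the shared fit, 2 genes were called. Of 8 erythroid markers 4 were called lower in V617F CD41-positive HSC, their sum being 72.6 to 100.2 CPM in V617F, against 117 to 152 CPM in WT; their part in the difference was not tested.

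In CD41-negative HSC 3 genes were called higher in V617F than in WT mice and 0 lower, where 5.48% of all genes were called higher and 7.94% lower. The median log2 difference was 0.14 (range -0.57 to 0.84), with 30 of 47 positive, where 49.2% of all genes were positive, against a median of -0.01 over all genes. V617F libraries lay above all WT libraries for 11 genes, where 16% of all genes did so. Tyms had 95.96, 82.6 and 91.9 CPM in V617F CD41-negative HSC, against 44.3, 33.8 and 72.7 CPM in WT CD41-negative HSC. The groups did not overlap, WT replicates 1 and 3 being lowest, and the log2 difference was 0.84 ± 0.21 (SE, adjusted p = 0.0283). Gins1 had 19.96, 14.2 and 16.98 CPM in V617F CD41-negative HSC, against 10.6, 9.30 and 13.7 CPM in WT CD41-negative HSC. Gins1 differed by log2 0.60 ± 0.18 (SE, adjusted p = 0.0456), and Cdc45, with 37.9, 36.4 and 41.98 CPM in V617F CD41-negative HSC, against 30.9, 22.3 and 30.6 CPM in WT CD41-negative HSC, by 0.47 ± 0.14 (SE, adjusted p = 0.0448). Pold1 went the other way, with 143, 161 and 182 CPM in V617F CD41-negative HSC, against 297, 243 and 179 CPM in WT CD41-negative HSC. The groups overlapped, and at log2 -0.57 ± 0.18 (SE, adjusted p = 0.0503) Pold1 missed the threshold.

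These 3 calls were lost or multiplied when single libraries were left out. No gene was called when V617F CD41-negative replicate 1, 2 or 3 or WT CD41-negative replicate 1 or 3 was left out. Without WT CD41-negative replicate 4, 19 were called, 15 higher and 4 lower, where 6021 of all 14406 genes were called in either direction. When any single V617F CD41-positive library was left out, 1 was called. Leaving out WT replicates 1 and 3 together, the libraries with the high Lars2 share, left 0 calls and a log2 difference for Tyms of 0.30. WT replicate 1 also had a granulocyte marker sum of 569 CPM (Mpo at 75.7 CPM), against 163 to 199 CPM in V617F CD41-negative HSC and 114 and 163 CPM in the other WT CD41-negative libraries. Of 8 erythroid markers 7 were called lower in V617F CD41-negative HSC, and their sum was 36.2 to 86.5 CPM in V617F, against 127 to 233 CPM in WT. Of 6 macrophage markers 5 were called lower (sum 2.31 to 2.65 CPM in V617F, against 11.2 to 14.5 CPM in WT), and of 8 megakaryocyte markers 3 were called lower (329 to 401 CPM in V617F, against 450.5 to 644 CPM in WT). No granulocyte marker was called, and the part of none of these lists was tested. Where 5.48% of all genes were called higher and 7.94% lower, 10 of the other 67 pathway genes were called higher and 0 lower. Among them were Ccne2, a cyclin of the step from G1 into S phase, at log2 0.76 ± 0.18 (SE, adjusted p = 0.0245) and the deoxycytidine kinase gene Dck at 0.76 ± 0.13 (SE, adjusted p = 0.0076).

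**Figure D3:**
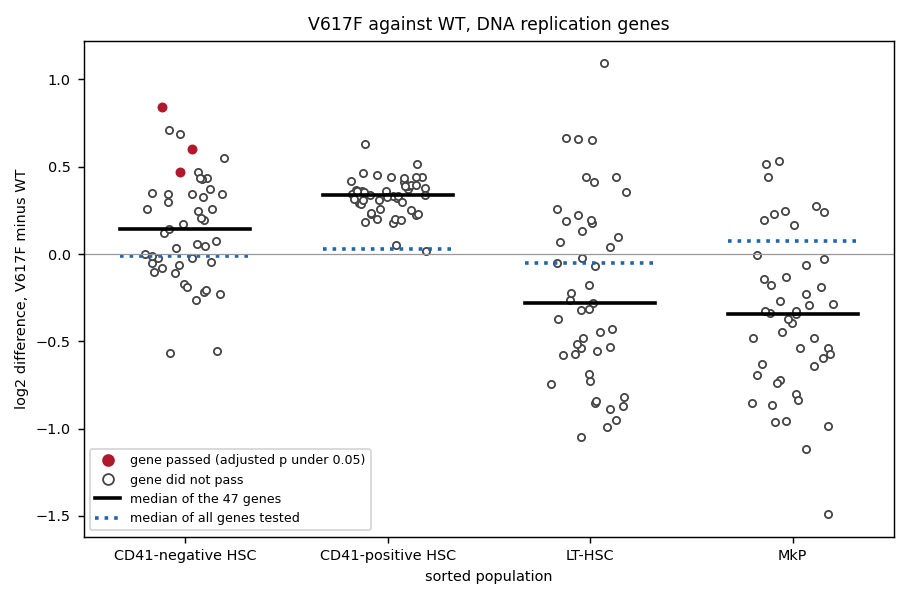
Log2 difference, V617F minus WT, of each of the 47 genes (points) in the 4 sorted populations; filled points passed the test, solid lines are medians of the 47 genes and dotted lines medians of all genes tested. All points of CD41-positive HSC lie above 0, 3 points of CD41-negative HSC are filled, and the medians in LT-HSC and MkP lie below 0.

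Whether the effect of V617F differed between the CD41 fractions was tested with an interaction term. No gene of the 47 passed by edgeR's quasi-likelihood test, nor did any of the 14467 genes (0%); 6 of the 47 had an unadjusted p under 0.05 (8.81% of all genes), and DESeq2 and limma-voom called 0. The median interaction was log2 0.19, with 36 of 47 positive, where 49.6% of all genes were positive, and Rfc5 had the smallest p at 0.59 ± 0.18 (SE, adjusted p = 0.566). Without WT CD41-negative replicate 4, 6 genes were called, 4 with a positive and 2 with a negative interaction, where 1766 of all 14406 genes were called.

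In LT-HSC no replication gene passed between V617F and WT by edgeR's quasi-likelihood test, where 0.063% of all genes were called in either direction; 1 of 47 had an unadjusted p under 0.05 (12.3% of all genes), and DESeq2 and limma-voom called 0. The median log2 difference was -0.28 (range -1.05 to 1.09), with 30 of 47 negative, where 52.4% of all genes were negative, against a median of -0.05 over all genes. Libraries of the genotypes overlapped for all 47 genes, where V617F libraries lay above all WT libraries for 13.6% of all genes and below them for 5.63%. Pold2 had 189, 211 and 145 CPM in V617F LT-HSC, against 463, 318 and 203 CPM in WT LT-HSC. Rfc2 had 656, 598 and 363 CPM in V617F LT-HSC, against 2003, 649 and 479.7 CPM in WT LT-HSC. The WT libraries spread widely, with replicate 30 highest for both, and the log2 differences were -0.85 ± 0.31 (SE, adjusted p = 0.283) for Pold2 and -0.95 ± 0.47 (SE, adjusted p = 0.444) for Rfc2. Rpa2 had 293, 286 and 164 CPM in V617F LT-HSC, against 773, 295 and 264 CPM in WT LT-HSC. Fen1 had 255, 197 and 179 CPM in V617F LT-HSC, against 274, 439 and 224 CPM in WT LT-HSC. Replicate 30 was highest for Rpa2 and replicate 31 for Fen1, and the log2 differences were -0.84 ± 0.41 (SE, adjusted p = 0.431) for Rpa2 and -0.57 ± 0.33 (SE, adjusted p = 0.53) for Fen1. Without replicate 30 the median of the 47 genes was log2 -0.05 and 0 genes passed, with Pold2 at -0.50, Rfc2 at -0.05, Rpa2 at -0.16 and Fen1 at -0.63. The median depended on the other WT libraries too. It was log2 -0.006 without WT LT-HSC replicate 31 and -0.46 without WT LT-HSC replicate 32. For Mcm6, singled out here after its values were seen, the same WT replicate 30 was lowest, with 872, 372 and 731 CPM in V617F LT-HSC, against 124, 1961 and 1227 CPM in WT LT-HSC.

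Genotype and sex coincide in LT-HSC and cannot be told apart. The granulocyte marker sum was 471 to 1166 CPM in V617F LT-HSC, against 3709 to 6758 CPM in WT LT-HSC, with no marker of that list at 0 in any library; its part in the values of the replication genes was not tested.

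In MkP no replication gene passed between V617F and WT by edgeR's quasi-likelihood test, where 1.75% of all genes were called in either direction; 3 of 47 had an unadjusted p under 0.05 (15.3% of all genes), DESeq2 called 1 and limma-voom 0. The median log2 difference was -0.34 (range -1.49 to 0.54), with 38 of 47 negative, where 45.3% of all genes were negative, against a median of 0.08 over all genes. V617F libraries lay below all WT libraries for 12 genes, where 9.99% of all genes did so, and above them for 1, where 21% did so. Cdc6 had 90.2, 99.8 and 92.98 CPM in V617F MkP, against 163, 259.5 and 138 CPM in WT MkP. Pold1 had 199, 205 and 91.5 CPM in V617F MkP, against 482, 460.4 and 449 CPM in WT MkP. The genotypes did not overlap for either gene, and the log2 differences were -0.99 ± 0.34 (SE, adjusted p = 0.152) for Cdc6 and -1.49 ± 0.58 (SE, adjusted p = 0.222) for Pold1. Chaf1a had 115, 118 and 78.3 CPM in V617F MkP, against 202, 229.9 and 129 CPM in WT MkP. Mcm7 had 326, 350.5 and 292 CPM in V617F MkP, against 571, 460.1 and 469 CPM in WT MkP. Both had every V617F library below every WT library, at log2 -0.85 ± 0.32 (SE, adjusted p = 0.207) for Chaf1a and -0.63 ± 0.30 (SE, adjusted p = 0.335) for Mcm7. All 6 MCM genes and all 5 delta and epsilon polymerase genes had negative differences. The granulocyte marker sum was 1128 to 2572 CPM in V617F MkP, against 8314 to 12285 CPM in WT MkP, most of it Mpo with 663 to 1717 CPM in V617F MkP, against 5799 to 9874 CPM in WT MkP. No marker of that list was at 0, and 1 of its 9 was called lower. The erythroid sum was 87.3 to 135 CPM in V617F MkP, against 518 to 547 CPM in WT MkP, with 2 of 8 markers called lower. Of 8 stem cell markers 2 were called higher and 0 lower. The stem cell sum was nonetheless lower, at 936 to 1476 CPM in V617F MkP, against 1530 to 1822 CPM in WT MkP. WT MkP libraries detected 11483 to 12463 genes, against 14634 to 15167 in V617F MkP. The part of these lists and of the number of genes detected in the result was not tested. Without WT LT-HSC replicate 30, which enters only through the shared fit, 1 gene (Pold1) was called.

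MkP were set against LT-HSC within each genotype to read replication genes between a progenitor and the stem cells of the same protocol. In V617F all 47 log2 differences were positive, where 46.8% of all genes were positive, with a median of 0.72 (range 0.01 to 1.29), against -0.06 over all genes. MkP libraries lay above all LT-HSC libraries for 37 genes, where 17% of all genes did so. None passed by edgeR's quasi-likelihood test, where 1.09% of all genes were called in either direction; 10 of 47 had an unadjusted p under 0.05 (10.4% of all genes), and DESeq2 and limma-voom called 0. Rrm2 had 219, 239.7 and 239.96 CPM in V617F MkP, against 105, 109 and 112 CPM in V617F LT-HSC. Chaf1a had 115, 118 and 78.3 CPM in V617F MkP, against 63.1, 43.9 and 53.96 CPM in V617F LT-HSC. The populations did not overlap for either, and the log2 differences were 1.10 ± 0.36 (SE, adjusted p = 0.237) for Rrm2 and 0.95 ± 0.32 (SE, adjusted p = 0.253) for Chaf1a. Fen1 had 385, 359.8 and 471 CPM in V617F MkP, against 255, 197 and 179 CPM in V617F LT-HSC. Cdc7 had 112, 100.03 and 102 CPM in V617F MkP, against 54.2, 30.6 and 62.9 CPM in V617F LT-HSC. Both again had every MkP library above every LT-HSC library, at log2 0.95 ± 0.33 (SE, adjusted p = 0.264) for Fen1 and 1.09 ± 0.44 (SE, adjusted p = 0.376) for Cdc7. The count depended on which libraries were in the fit: with these 2 groups alone, which also changes the filter and the scaling, 20 genes passed, and without WT LT-HSC replicate 30 it was 1 gene (Rrm2). Of all genes, 2972 of 13554 passed in the first of these fits and 405 of 14724 in the second. V617F MkP came from females and V617F LT-HSC from males. Of 8 megakaryocyte markers 5 were called higher in V617F MkP (sum 4517 to 5735 CPM, against 390.1 to 428 CPM in V617F LT-HSC), 4 of 8 stem cell markers were called lower (936 to 1476 CPM in MkP, against 2043 to 2654 CPM in LT-HSC) and 2 of 9 granulocyte markers higher (1128 to 2572 CPM in MkP, against 471 to 1166 CPM in LT-HSC); their part was not tested.

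In WT 8 genes were called higher in MkP than in LT-HSC and 0 lower, where 2.32% of all genes were called higher and 6.58% lower. They were Cdc6, Mcm5, Mcm7, Cdc7, Prim2, Pole2, Uhrf1 and Chaf1a. The median log2 difference was 0.83 (range -0.72 to 3.20), with 39 of 47 positive, where 41.9% of all genes were positive, while the median of all genes was -0.20. MkP libraries lay above all LT-HSC libraries for 16 genes, where 8.39% of all genes did so. Chaf1a had 202, 229.9 and 129 CPM in WT MkP, against 55.9, 45.4 and 39.3 CPM in WT LT-HSC. Cdc6 had 163, 259.5 and 138 CPM in WT MkP, against 35.9, 62.1 and 49.5 CPM in WT LT-HSC. The populations did not overlap for either gene, and the log2 differences were 1.999 ± 0.33 (SE, adjusted p = 0.00387) for Chaf1a and 1.93 ± 0.34 (SE, adjusted p = 0.00577) for Cdc6. Uhrf1 had 308, 295 and 349 CPM in WT MkP, against 36.4, 141 and 58.2 CPM in WT LT-HSC. Pole2 had 63.9, 199.7 and 60.7 CPM in WT MkP, against 13.3, 18.3 and 32.3 CPM in WT LT-HSC. Every MkP library was above every LT-HSC library, with log2 differences of 2.01 ± 0.46 (SE, adjusted p = 0.0217) for Uhrf1 and 2.34 ± 0.54 (SE, adjusted p = 0.0225) for Pole2. Orc1, singled out after its values were seen, had the largest difference, log2 3.20 ± 0.94 (SE, adjusted p = 0.0544), and missed the threshold, its WT MkP libraries holding 68.9, 14.1 and 42.5 CPM and its WT LT-HSC libraries 2.60, 10.5 and 0.577 CPM.

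The WT count moved with the libraries in the fit. It was 18 without WT LT-HSC replicate 30, 13 without WT LT-HSC replicate 31, 5 without WT MkP replicate 30 and 4 without WT MkP replicate 32. Of all genes, these fits called 1626 of 14724, 1448 of 14687, 1120 of 14739 and 1032 of 14799, in that order. Leaving out libraries of the other genotype gave 4 genes without V617F LT-HSC replicate 6 or V617F MkP replicate 1 or 2, and 5 without V617F LT-HSC replicate 8 or V617F MkP replicate 3. Fitted on the WT groups alone, 0 passed. Of the 67 other pathway genes 8 were called higher in WT MkP and 0 lower, among them Ccna2 at log2 1.79 ± 0.28 (SE, adjusted p = 0.00299) and the cyclin gene Ccne1 at 2.74 ± 0.66 (SE, adjusted p = 0.0269). The shares over all genes in WT MkP were 2.32% higher and 6.58% lower. In V617F 0 of the 67 were called, with 17 at an unadjusted p under 0.05 (10.4% of all genes). In WT MkP 6 of 8 megakaryocyte markers were called higher (sum 3795 to 4826 CPM, against 229 to 387 CPM in WT LT-HSC) and 4 of 8 stem cell markers lower (1529.99 to 1822 CPM in MkP, against 1666 to 4476 CPM in LT-HSC). Of 6 mast cell markers 4 were called higher (557 to 685 CPM in MkP, against 131 to 659 CPM in LT-HSC). Of 9 granulocyte markers 2 were called higher and 1 lower, their sum being 8314 to 12285 CPM in WT MkP, against 3709 to 6758 CPM in WT LT-HSC. The part of these lists in the difference was not tested.

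The interaction of genotype with population across MkP and LT-HSC called 0 of the 47 genes by edgeR's quasi-likelihood test, where 0.455% of all genes were called in either direction; 2 of 47 had an unadjusted p under 0.05 (8.75% of all genes), and DESeq2 and limma-voom called 0. Its median was log2 -0.05, against 0.13 over all genes, and Cdc6 had the smallest p at -1.17 ± 0.47 (SE, adjusted p = 0.48). Without WT LT-HSC replicate 30 the median was log2 -0.27, with 0 calls. The sign of the median changed with the library left out. It ran from log2 -0.42 without WT LT-HSC replicate 31 to 0.23 without WT MkP replicate 32. Sex also enters this interaction, since only the V617F LT-HSC libraries of this protocol came from males. WT MkP had the highest mean of the 4 groups for 33 of the 47 genes and V617F MkP for 7. The matching shares of all genes were not counted.

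**Figure D4:**
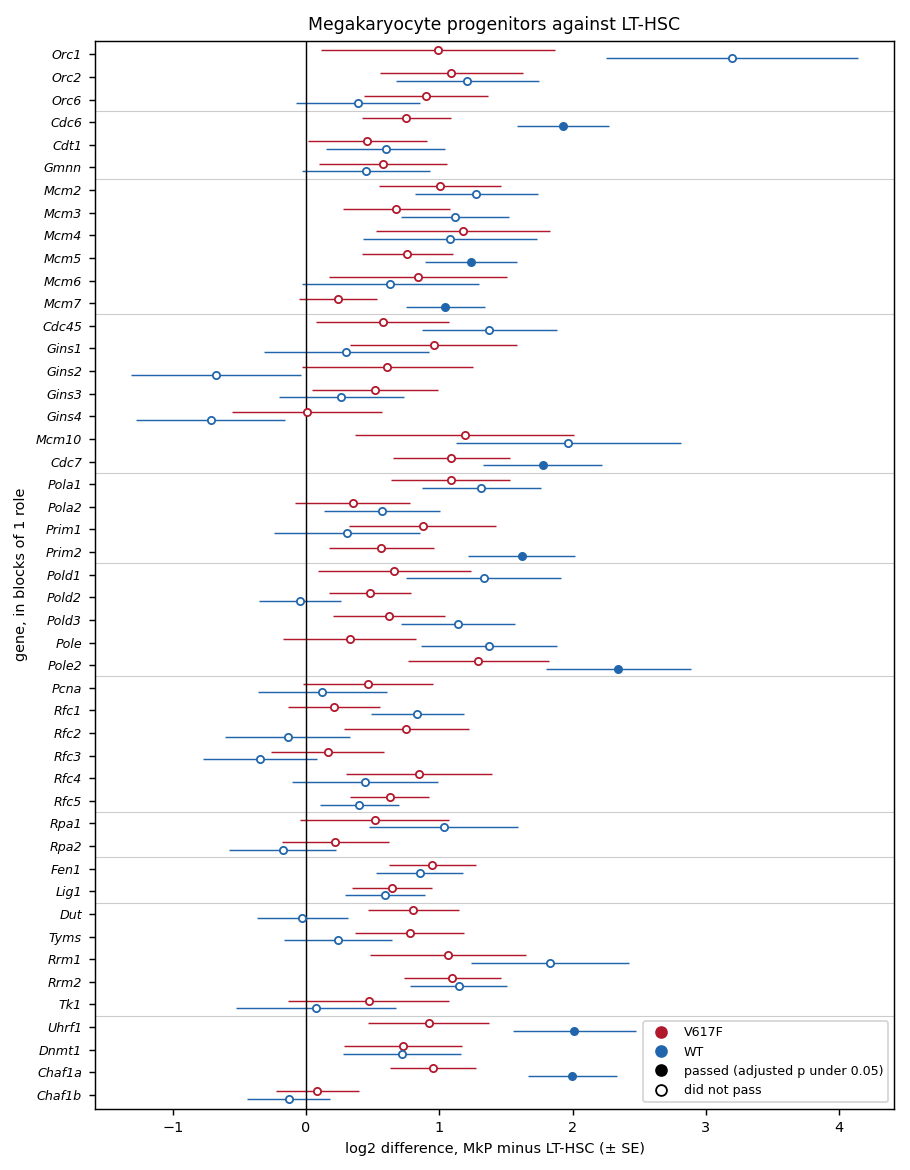
Log2 difference of each gene, MkP minus LT-HSC, with its standard error, in V617F mice (red, upper point of each pair) and WT mice (blue, lower point); filled points passed the test. All 47 V617F points lie right of 0 and are open, 8 WT points are filled, and the standard errors are larger than those of the same genes between CD41 fractions.

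**Figure D5:**
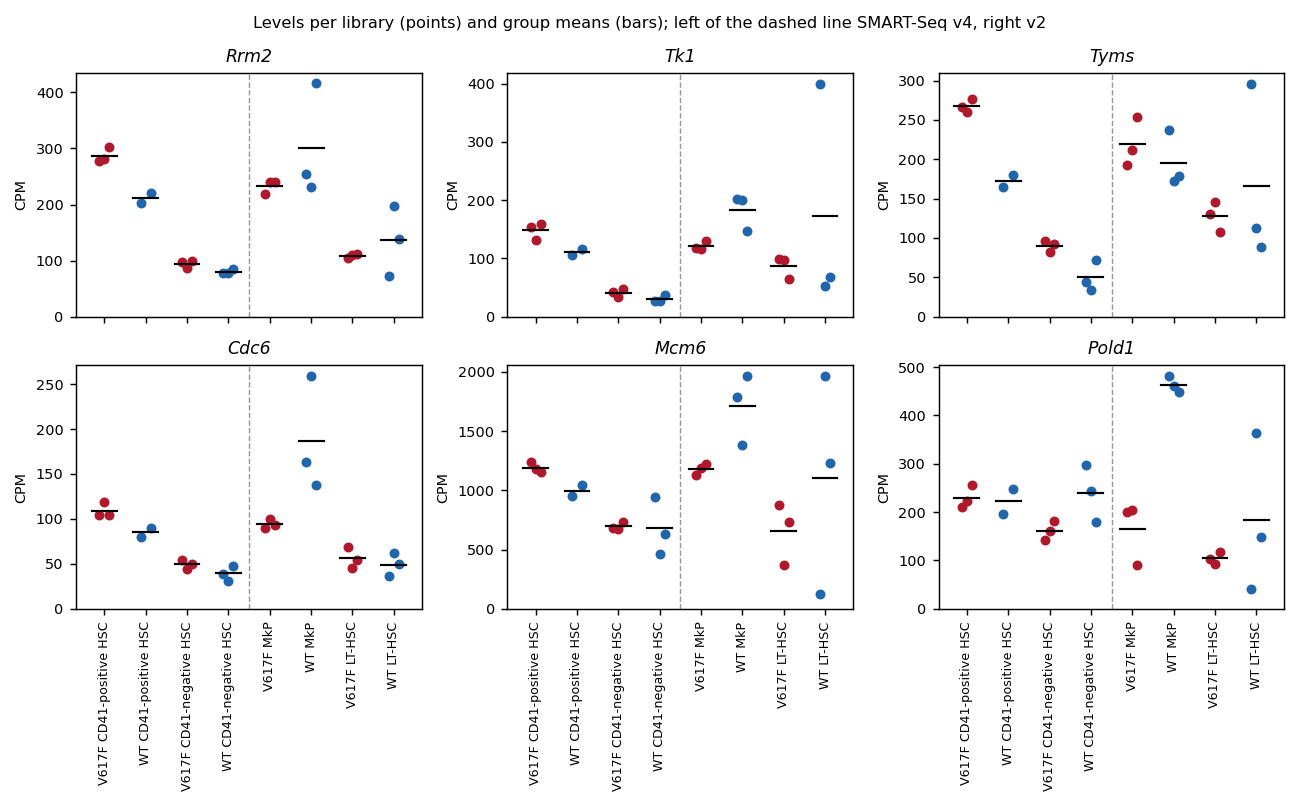
CPM of Rrm2, Tk1, Tyms, Cdc6, Mcm6 and Pold1 in each library (points) with group means (bars), V617F in red and WT in blue, SMART-Seq v4 groups left of the dashed line and v2 groups right of it. CD41-positive points of Rrm2, Tk1, Tyms, Cdc6 and Mcm6 stand above the CD41-negative points of their genotype, Pold1 overlaps in WT, and the WT LT-HSC points are spread widely for Mcm6 and Tk1.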

How the data were processed

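RNA of 23 sorted samples was measured by poly(A) RNA-seq, and the authors deposited raw counts per gene, with no row outside genes. Per the submitters' processing notes the build was mm10, and STAR 2.5.2a, R 3.4.2 and limma were used; the counting tool, its annotation and its treatment of reads that map to several genes are not given in the sources used here. SMART-Seq with Nextera XT does not mark strand, so reads of overlapping antisense genes cannot be told apart. No column of per-sample values was left unused.

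The SMART-Seq v4 libraries (11) and v2 libraries (12) were fitted apart in R 4.3.3, each with all of its groups in 1 fit: filterByExpr, TMM scaling and edgeR 4.0.16's quasi-likelihood test, with Benjamini-Hochberg adjustment over all 14467 (v4) or 14281 (v2) genes and a threshold of 0.05. All adjusted p in the text are from this fit, and ± after a log2 difference is its standard error (SE). CPM are counts-per-million of TMM-scaled library size, and RPKM divide these by the deposited gene length. The fits were tested on simulated data. Alternatives were DESeq2 1.42.0, limma-voom (limma 3.58.1), RLE size factors, 2 other filters, fits of the compared groups alone, a replicate block, sex as a covariate, X and Y genes left out and each library left out; leaving out WT CD41-negative replicates 1 and 3 together was added after seeing the data.

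The members, the 67 other pathway genes and the marker lists were chosen with earlier results of these data known. Values per library are given for the 4 members of smallest p in each comparison of 2 groups and the 2 of smallest p in each role in the comparison with most calls, with exceptions named in the text as singled out after their values were seen, and other pathway genes are named where they are among the 4 of smallest p in their list. Same-numbered V617F libraries of the CD41 fractions deviated together (residual r = 0.301, 0.419 and 0.298 for numbers 1, 2 and 3), and number 2 is male in both. The labels do not say whether such libraries come from the same mouse. The main fit had no replicate block, so its SE and adjusted p for these fractions are unpaired. A replicate block was run as an alternative.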

Additional observations from a re-analysis of the deposited data

Results flagged for a closer look

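The sign of the difference between V617F and WT ran opposite in 2 populations for 9 genes: every V617F MkP library lay below every WT MkP library, and every V617F CD41-positive library lay above both WT CD41-positive libraries. Of the 13908 genes tested in both protocols, 2.52% met the same rule, against 9 of the 47 (19.1%). None of these differences passed the test in either population. The difference between the populations was not tested, since the protocols were fitted apart. Among the MCM helicase genes, Mcm2 differed by log2 -0.96 in MkP and 0.23 in CD41-positive HSC, Mcm3 by -0.72 in MkP and 0.23 in CD41-positive HSC, Mcm6 by -0.54 in MkP and 0.26 in CD41-positive HSC, and Mcm7 by -0.63 in MkP and 0.32 in CD41-positive HSC. The loading factor Cdc6 differed by -0.99 in MkP and 0.36 in CD41-positive HSC. Pola2 differed by -0.54 in MkP and 0.29 in CD41-positive HSC, and Rpa2 by -0.45 in MkP and 0.33 in CD41-positive HSC. The thymidine kinase gene Tk1 differed by -0.59 in MkP and 0.42 in CD41-positive HSC, and Uhrf1 by -0.84 in MkP and 0.30 in CD41-positive HSC. The granulocyte marker sum moved with the genotype in MkP, at 1128 to 2572 CPM in V617F, against 8314 to 12285 CPM in WT; in CD41-positive HSC it was 51.8 to 133 CPM in V617F, against 82.3 and 91.0 CPM in WT. The number of genes detected was 11483 to 12463 in WT MkP, against 14634 to 15167 in V617F MkP. In CD41-positive HSC it was 16244 to 16341 in WT, against 15819 to 16061 in V617F. The part of the granulocyte sum and of the number of genes detected in the opposite signs was not tested.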

How the results depend on the processing

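The rise of replication genes in CD41-positive HSC kept its direction and size under each alternative run in V617F, with 42 to 46 genes called. In WT the alternatives other than leaving out a library called 27 to 44 genes, against 40. Leaving out single libraries gave 43 to 46 calls in V617F and 22 to 44 in WT. The genotype difference in CD41-negative HSC had 3 calls, all higher. DESeq2, limma-voom and no filter on low counts each gave 8, with 7 higher and 1 lower. Of all genes they called 3380 of 14467, 2322 of 14467 and 2401 of 18859, in that order. The count was 0 with only the compared groups and 0 without both libraries of replicate 2 (male). The replicate block gave 14, with 12 higher and 2 lower, where 3527 of all 13858 genes were called. That block ties different mice by a shared number, with nothing in the labels that pairs them. Without WT replicates 1 and 3 together Tyms differed by log2 0.30. Leaving out single libraries gave 0 to 19 calls, and the 19 stood beside 6021 calls among all 14406 genes. In CD41-positive HSC the 0 calls became 2 with DESeq2, 8 with only the compared groups, 6 without WT CD41-negative replicates 1 and 3 together and 0 to 2 with single libraries left out. Of all genes in CD41-positive HSC, DESeq2 called 455 of 14467 and the fit of only the compared groups 520 of 13771. In MkP the 0 calls between genotypes became 1 with DESeq2, 3 with only the compared groups and 0 to 1 with single libraries left out. Of all genes in MkP, DESeq2 called 1137 of 14281 and the fit of only the compared groups 762 of 12883. For MkP against LT-HSC in V617F the 0 calls became 20 with only the compared groups and 0 to 1 with single libraries left out. The 20 stood beside 2972 calls among all 13554 genes. For MkP against LT-HSC in WT the 8 calls became 13 with DESeq2, 15 with limma-voom, 0 with only the compared groups, 0 with the replicate block and 4 to 18 with single libraries left out. Of all 14281 genes DESeq2 called 2803 and limma-voom 1690, and the 18 stood beside 1626 calls among 14724 genes. The interaction over the CD41 fractions gave 0 to 6 calls with single libraries left out, the interaction over MkP and LT-HSC 0, and the genotype difference in LT-HSC 0. Beside the 6, 1766 of all 14406 genes were called. The cause of these shifts was not tested.

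The block on replicate number called 46 genes between V617F CD41 fractions, whose same-numbered libraries deviated together, and 44 between WT fractions. The labels do not say whether same-numbered libraries of either genotype come from the same mouse, and this was not tested. Residual r of same-numbered WT libraries was 0.0429 and 0.0242 between fractions and -0.0328, -0.00603 and 0.0231 between MkP and LT-HSC. The 2 WT CD41-positive libraries have residuals of equal size and opposite sign, so r between fractions cannot tell whether WT numbers pair. No paired analysis was possible for V617F against WT in CD41-positive HSC because the groups share 1 number, or for the V617F SMART-Seq v2 groups because they share none. Over the named genes, 983 values under the alternatives kept direction and side of the threshold, 23 newly passed, 46 no longer passed and 0 reversed. These genes had been picked by small p in the same comparisons, so few reversals could arise. Values that passed in neither fit counted as kept whatever their size: Rfc2 in LT-HSC did so in 19 settings, with log2 from -1.40 to -0.05. Precision is limited by 3 libraries in each group and 2 in WT CD41-positive HSC.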
